A study of Mus musculus with 16 samples.

Results

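The values of 9 genes were followed through 4 groups of adult mice: Pfdn2, Gtf3c6, Nop58, Top2b, Pi4kb, Svil, Llgl2, Dnah14 and Samd3. They were chosen by their small p values for the interaction of genotype and drug in these same samples, that is, for a change with fluoxetine that differed between mutant and wild-type mice, from a table of 18424 genes, of which 17567 passed a filter on low values (at least 10 in at least 4 mice). All 9 passed that filter. The interaction and the drug changes within each genotype are therefore given as a description of the chosen genes, with no test. None of the 9 had an adjusted p under 0.05 for the interaction among all genes tested.

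RNA was sequenced from the medial prefrontal cortex of 16 male C57BL/6N mice at postnatal day 120. They either carried 2 intact Arid1b copies (wild type, WT) or had 1 copy truncated at exon 5 by a germline CRISPR deletion (heterozygous, HT), and their dams drank water with 0.2% saccharin, either alone (vehicle, Veh) or with fluoxetine (Flx) at 0.1 mg per ml, from day 3 to day 21 after birth. The pups received the drug through the milk, so that the 4 groups of 4 mice (WT-Veh and WT-Flx, HT-Veh and HT-Flx) share the saccharin and differ in genotype and in the drug, which had been withdrawn at weaning. Which mice shared a dam or a litter is not given in the sources used here, so p-values measure only the spread between these mice.

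Fluoxetine blocks the serotonin transporter and so prolongs the action of serotonin, a transmitter that also guides the maturation of cortical circuits. ARID1B is a large DNA-binding subunit of the BAF (SWI/SNF) complex, which moves nucleosomes and opens chromatin. The 9 genes belong to no single pathway: they encode parts of the machinery that folds proteins, transcribes and modifies small RNAs and untangles DNA, a lipid kinase of the Golgi, and proteins of the cytoskeleton and of cell polarity.

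Values are normalized read counts, in which the authors had divided each gene's estimated reads by a factor for the sample. The sequencing depth is unknown, so no counting error can be given. Normalized totals ranged from 92.8% to 104% of their mean. Arid1b itself, the check of the genotype, had means (± SD, n = 4) of 2368 ± 432 for WT-Veh and 2159 ± 233 for WT-Flx mice, against 1795 ± 160.2 for HT-Veh and 1636 ± 61.0 for HT-Flx mice. The mean HT minus WT difference was -0.39 on the log2 scale, which did not pass in limma (adjusted p = 0.124), and the lowest WT mice lay within the HT range. A deletion around 1 exon need not remove the transcript, so its level is a limited check of the labels.

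The mice also differed in markers of the olfactory bulb, which lies in front of the prefrontal cortex. The sum of 9 measured markers out of 10 ran from 824 to 11074 in WT-Veh, from 859 to 8290.3 in WT-Flx, from 815 to 3423 in HT-Veh and from 768 to 944 in HT-Flx. The 5 mice with the highest sums, 2547 and above, were 1 WT-Veh mouse, 3 WT-Flx mice (replicates 1, 2 and 4) and 1 HT-Veh mouse, and the next mouse was at 1159. Of these markers, Eomes and Barhl2 were listed at 0 in at least 1 mouse of each group. The markers of cortical glutamatergic neurons had sums from 117423 to 211731. The same 5 mice had the lowest of these sums, from 117423 to 160017, and the next mouse was at 178345. In such bulk tissue, fewer cells of a type and less RNA per cell cannot be told apart. Values without high-bulb mice are given beside the genes concerned, and beyond these values the part of the bulb was not tested.

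The first group of genes serves the making of proteins and of small RNAs. Pfdn2 encodes a subunit of prefoldin, which hands unfolded actin and tubulin to the CCT chaperonin (chr1:171345670-171359254, plus strand, ENSMUSG00000006412, GRCm38). In WT-Veh mice its normalized read counts were 2134, 1814, 1907 and 1902, and in WT-Flx mice 2771, 2528, 2565 and 2903. In HT-Veh mice they were 1909.9, 2043, 2211 and 1871, and in HT-Flx mice 2026, 1763, 1736 and 1866. Every WT-Flx mouse was above every mouse of the other 3 groups, which overlapped with each other. The change with fluoxetine, as a difference of log2(value + 1), was 0.47 (SE 0.080) in WT and -0.12 (SE 0.080) in HT, and the interaction, the HT change minus the WT change, was -0.59 (SE 0.11). This was the smallest interaction p of all genes tested.

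Gtf3c6 encodes a subunit of TFIIIC, the factor that brings RNA polymerase III to tRNA genes (chr10:40247703-40258108, minus strand, ENSMUSG00000019837). Its normalized read counts were 539, 589, 472 and 524 in WT-Veh and 702, 757, 754 and 699 in WT-Flx mice. They were 467, 479, 557 and 425 in HT-Veh and 417, 514, 449.5 and 444 in HT-Flx mice. As for Pfdn2, the WT-Flx mice stood above the other 12 with no overlap, a pattern held by 48 of all genes tested (0.273%). The drug change was 0.46 (SE 0.10) in WT and -0.076 (SE 0.10) in HT on the log2 scale. The interaction was -0.53 (SE 0.14).

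Since Pfdn2 and Gtf3c6 were the only members with this separation of the WT-Flx mice, their promoter windows are shown, from 250 bases before to 50 bases after the RefSeq start (GRCm38.p6). The Pfdn2 window lies at chr1:171345425-171345724 on the plus strand and the Gtf3c6 window at chr10:40257663-40257962 on the minus strand, 396 bases inside the GENCODE start of that gene. Capitals mark matches, on either strand, to the motifs found among 8 that were searched and that were chosen after the sequences had been seen: the YY1 octamer AAGATGGC, the GC box GGGCGG, the TATA box TATAAA, the ETS core CCGGAAG and the E-box CACGTG.
Pfdn2: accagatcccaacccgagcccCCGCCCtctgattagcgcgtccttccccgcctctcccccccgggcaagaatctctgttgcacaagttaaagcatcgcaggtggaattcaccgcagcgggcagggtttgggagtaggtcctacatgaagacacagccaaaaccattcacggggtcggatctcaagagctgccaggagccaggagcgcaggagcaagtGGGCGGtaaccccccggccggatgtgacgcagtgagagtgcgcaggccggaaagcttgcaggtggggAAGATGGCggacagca
Gtf3c6: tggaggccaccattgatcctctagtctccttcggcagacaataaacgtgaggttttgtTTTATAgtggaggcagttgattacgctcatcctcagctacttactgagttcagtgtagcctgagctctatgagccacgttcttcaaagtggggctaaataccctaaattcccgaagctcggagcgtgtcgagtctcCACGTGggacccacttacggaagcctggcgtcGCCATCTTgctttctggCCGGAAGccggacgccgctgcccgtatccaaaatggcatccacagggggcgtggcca

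Both windows held the YY1 octamer, which 2.77% of 32544 windows of the same length held, and none of the other 5 members with a window did. Pfdn2 also held 2 GC boxes, a motif of 35.9% of all windows and of 5 of the 7 members with one. Gtf3c6 held no GC box, but a TATA box (13.6% of windows), an ETS core (8.91%) and an E-box (7.17%), each in 1 copy. These matches describe the letters and say nothing about binding. The start of Pfdn2 lies 24 bases from that of Nit1, an amidase gene on the opposite strand. Nit1 had an interaction of -0.0044 (SE 0.14) on the log2 scale, beside -0.59 for Pfdn2.

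Nop58 encodes a core protein of the box C/D particles that guide the methylation of ribosomal RNA (chr1:59684971-59719044, plus strand, ENSMUSG00000026020). The normalized read counts were 863, 1002, 869 and 1173 in WT-Veh and 1318, 1485, 1414 and 1157 in WT-Flx mice. They were 1127, 1069, 1244 and 1293 in HT-Veh and 1066, 1022, 1103 and 1167 in HT-Flx mice. The highest WT-Veh mouse was above the lowest WT-Flx mouse, and WT-Veh had the lowest mean of the 4 groups, 977. Fluoxetine went with a change of 0.46 (SE 0.11) in WT and -0.12 (SE 0.11) in HT, with an interaction of -0.58 (SE 0.15) on the log2 scale. The introns of Nop58 hold small nucleolar RNA genes on the same strand, Snord70 and Snord11 among them.

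Top2b encodes topoisomerase II beta, the form of the enzyme found in neurons that no longer divide, where it helps to transcribe long genes (chr14:16365179-16435462, plus strand, ENSMUSG00000017485). Its normalized read counts were 3186, 3023, 2825 and 2889 in WT-Veh and 3195, 4588, 3693 and 3934 in WT-Flx mice. They were 2960.2, 3195, 2999.7 and 3379.9 in HT-Veh and 3009, 2804, 2387 and 2826 in HT-Flx mice. The lowest WT-Flx mouse was only just above the highest WT-Veh mouse, and 1 WT-Flx mouse reached 4588. The drug change was 0.36 (SE 0.099) in WT and -0.19 (SE 0.099) in HT, with an interaction of -0.55 (SE 0.14) on the log2 scale. Without the 4 mice with the highest bulb scores, which include the mouse at 4588, the WT change was 0.24 and the interaction -0.39. Without WT-Veh 1, WT-Flx 1, WT-Flx 4 and HT-Veh 4, named beforehand as bulb-rich, they were 0.50 and -0.65. Leaving out the 5 highest scores, with 1 WT-Flx mouse left, gave 0.34 and -0.49. The HT change was -0.12 without HT-Flx replicate 3. Of its exon bases, 4624 lie within Rarb, a retinoic acid receptor gene on the opposite strand.

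Pi4kb encodes a phosphatidylinositol 4-kinase that makes the lipid PI4P on Golgi membranes (chr3:94974731-95006843, plus strand, ENSMUSG00000038861). The normalized read counts were 1076, 941, 1037 and 959 in WT-Veh and 1427, 1176, 1264 and 1138 in WT-Flx mice. They were 1254, 1050.2, 1089 and 1135 in HT-Veh and 875, 1063, 837 and 964 in HT-Flx mice. The WT groups were apart, while 1 HT-Flx mouse at 1063 lay within the HT-Veh range. The changes in the 2 genotypes were of opposite sign, 0.32 (SE 0.095) in WT and -0.28 (SE 0.095) in HT on the log2 scale. The interaction was -0.59 (SE 0.13). Without the 4 mice with the highest bulb scores the WT change was 0.46 and the interaction -0.73. Without the 4 mice named beforehand as bulb-rich they were 0.32 and -0.59. Leaving out the 5 highest scores, with 1 WT-Flx mouse left, gave 0.37 and -0.65.

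**Figure D1:**
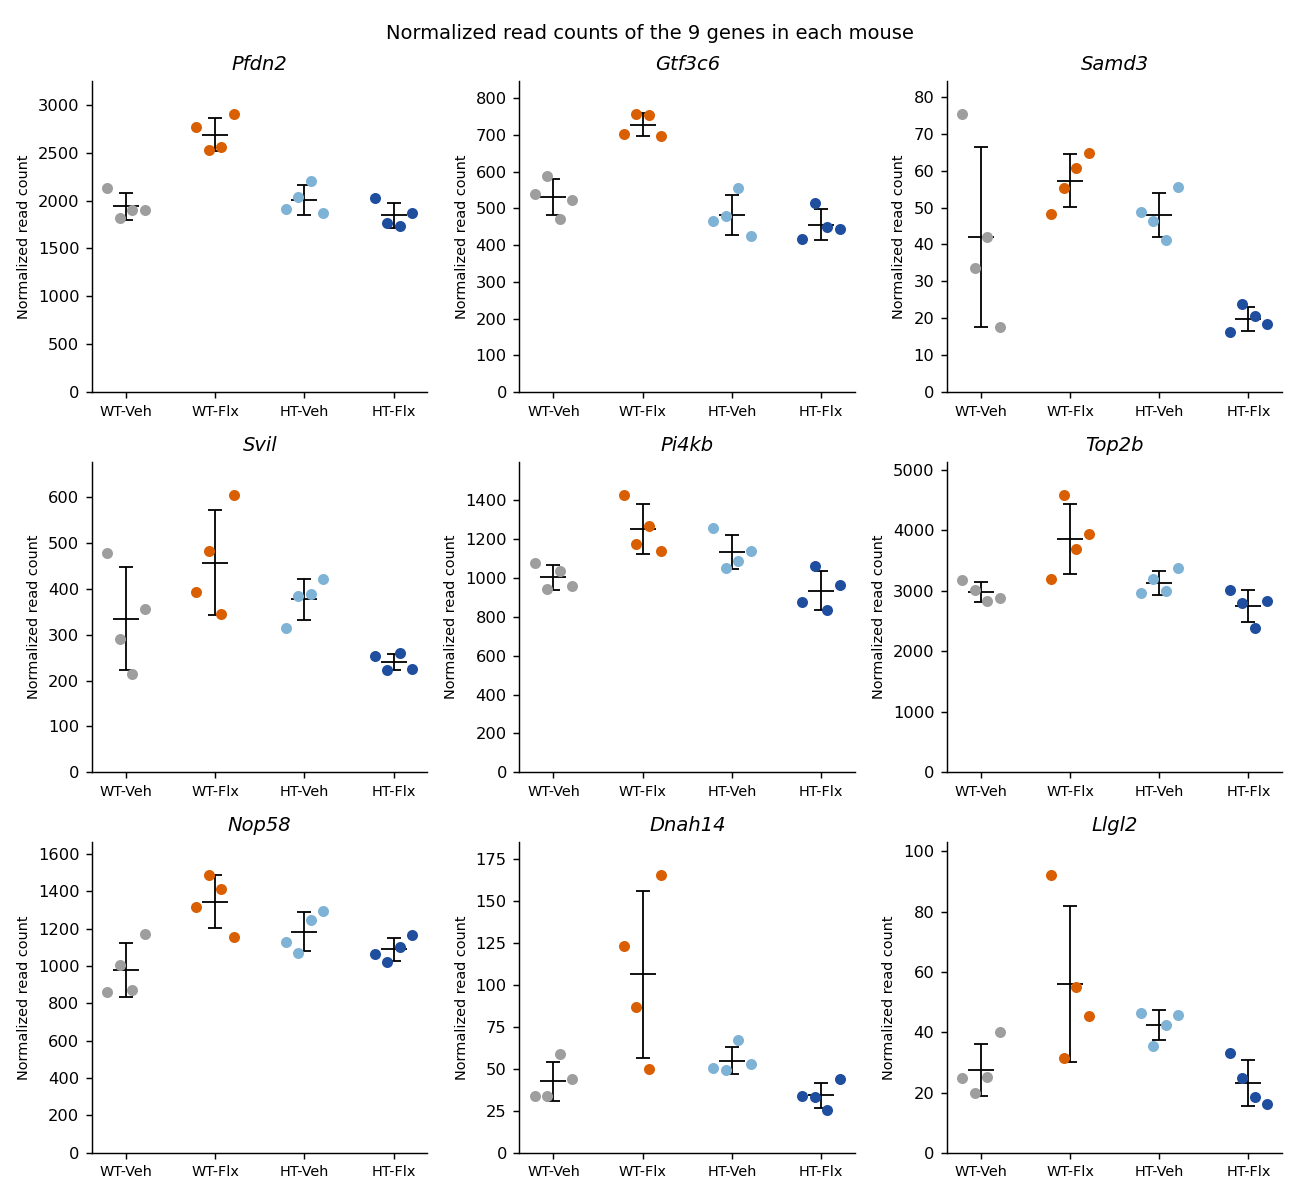
Normalized read counts (y axes, from 0) of the 9 genes in each mouse, by group; points are mice and the black marks are the mean ± SD of 4 mice. For Pfdn2 and Gtf3c6 the WT-Flx mice lie above all others, whereas for Samd3 the HT-Flx mice lie between 16.1 and 23.7, below all HT-Veh mice.

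The cytoskeleton and polarity genes had wider spreads. Svil encodes supervillin, which ties actin filaments to the cell membrane (chr18:4920540-5119299, plus strand, ENSMUSG00000024236). Its normalized read counts were 479, 292, 214 and 355 in WT-Veh and 393, 483, 345 and 605 in WT-Flx mice. They were 315, 384, 389.5 and 421 in HT-Veh and 254, 224, 259 and 225 in HT-Flx mice. The HT-Flx mice were below every HT-Veh mouse, while the WT groups overlapped widely. Fluoxetine went with a change of 0.47 (SE 0.20) in WT and -0.64 (SE 0.20) in HT, with an interaction of -1.12 (SE 0.29) on the log2 scale. The interaction was -0.79 when the bulb score, the mean log2 value of the bulb markers, was added to the fit. Without the 5 mice with the highest scores, which left 1 WT-Flx mouse, at 345, the interaction was -0.88. The WT change was 0.26 with the bulb score in the fit, 0.30 without those 5 mice and 0.28 without WT-Veh replicate 3, the mouse at 214. Without the 4 mice with the highest scores the WT change was 0.39 and the interaction -0.98. Other fits without bulb-rich mice gave larger values. Without WT-Veh 1, WT-Flx 1, WT-Flx 4 and HT-Veh 4, named beforehand as bulb-rich, they were 0.54 and -1.13. Without WT-Veh replicate 1 alone, the mouse at 479, they were 0.67 and -1.31.

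Llgl2 encodes a relative of the fly protein lethal giant larvae, which sets the polarity of epithelial cells (chr11:115824049-115855780, plus strand, ENSMUSG00000020782). The normalized read counts were low, at 24.7, 19.8, 25.0 and 39.9 in WT-Veh and 92.0, 31.4, 55.1 and 45.2 in WT-Flx mice. They were 46.2, 35.4, 42.4 and 45.8 in HT-Veh and 33.2, 24.9, 18.6 and 16.3 in HT-Flx mice. The highest WT-Flx value, 92.0, was far from the other WT-Flx mice, and the HT groups did not overlap. The drug change was 0.95 (SE 0.31) in WT and -0.88 (SE 0.31) in HT, with an interaction of -1.83 (SE 0.44) on the log2 scale. Without WT-Veh 1, WT-Flx 1 (the mouse at 92.0), WT-Flx 4 and HT-Veh 4, named beforehand as bulb-rich, the WT change was 0.60. It was 1.36 without the 4 mice with the highest bulb scores, which do not include the mouse at 92.0. With the bulb score in the fit it was 0.97, and 1.00 without the 5 highest, which left 1 WT-Flx mouse.

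Dnah14 encodes a heavy chain of axonemal dynein, the motor of moving cilia, which in the brain are found on ependymal cells (chr1:181576559-181815774, plus strand, ENSMUSG00000047369). Its normalized read counts were 33.7, 33.7, 58.8 and 43.7 in WT-Veh and 123, 86.8, 49.6 and 165 in WT-Flx mice. They were 50.7, 49.2, 67.1 and 52.8 in HT-Veh and 33.6, 33.3, 25.5 and 44.1 in HT-Flx mice. Of the WT-Flx mice, 3 were above all others and the fourth was within the WT-Veh range. Fluoxetine went with a change of 1.21 (SE 0.30) in WT and -0.69 (SE 0.30) in HT, with an interaction of -1.89 (SE 0.43) on the log2 scale. The same 3 WT-Flx mice had the high bulb markers. In contrast, WT-Veh 1, with the highest bulb sum of all mice, 11074, was at the low end of WT-Veh, at 33.7. HT-Veh 4, the other high-bulb mouse, was at 52.8, within the range of the other HT-Veh mice. Between the deviations of Dnah14 and of the bulb score from their group means, Pearson r was 0.24. Without the 5 mice with the highest bulb scores, which left 1 WT-Flx mouse, the WT change was 0.16 (SE 0.39) and the interaction -0.86 (SE 0.47), whereas the HT change was -0.70. Without the 4 mice named beforehand as bulb-rich (WT-Veh 1, WT-Flx 1, WT-Flx 4 and HT-Veh 4) the WT change was 0.56 and the interaction -1.26. The bulb score as a covariate left the interaction at -1.74. Sums of 6 ependymal markers overlapped between the groups, from 166 to 226 in WT-Veh, 173 to 242 in WT-Flx, 147 to 261 in HT-Veh and 128 to 427 in HT-Flx, and Ccdc153 and Tmem212 were listed at 0 in at least 1 mouse of each group.

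Samd3 encodes a protein with a sterile alpha motif (chr10:26229707-26272172, plus strand, ENSMUSG00000051354). The normalized read counts were 75.3, 33.5, 42.0 and 17.5 in WT-Veh and 48.3, 55.4, 60.8 and 64.7 in WT-Flx mice. They were 48.9, 46.2, 41.3 and 55.7 in HT-Veh and 16.1, 23.7, 20.6 and 18.3 in HT-Flx mice. The 4 HT-Flx mice were close together at the low end, but 1 WT-Veh mouse, at 17.5, was as low. The drug change was 0.61 (SE 0.31) in WT and -1.25 (SE 0.31) in HT, with an interaction of -1.86 (SE 0.44) on the log2 scale. Here the larger change was the one in HT. The WT change rested on single mice: it was 0.26 without WT-Veh replicate 4, the mouse at 17.5, and 0.94 without WT-Veh replicate 1, the mouse at 75.3. It was 0.36 with the bulb score in the fit and 0.97 without the 4 mice named beforehand as bulb-rich (WT-Veh 1, WT-Flx 1, WT-Flx 4 and HT-Veh 4). Without the 5 mice with the highest scores, which left 1 WT-Flx mouse, at 60.8, the WT change was 1.04.

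The 9 genes shared a direction. All 9 had a positive drug change in WT and a negative one in HT, so the interaction was negative in 9 of 9, beside 49.7% of all genes tested and 53.4% of the 754 genes with an unadjusted interaction p under 0.05. The WT change was the larger in size in 7 genes, the exceptions being Samd3 and Svil. The small HT changes of Pfdn2, Gtf3c6 and Nop58 shifted in both directions, with no change of sign, when single mice were left out. For Pfdn2 the HT change ran from -0.16 without HT-Flx replicate 1 to -0.073 without HT-Veh replicate 3. For Nop58 it ran from -0.16 without HT-Veh replicate 2 to -0.073 without HT-Veh replicate 4. For Gtf3c6 it ran from -0.14 without HT-Flx replicate 2 to -0.0045 without HT-Veh replicate 3. The WT-Flx mice were above the WT-Veh mice with no overlap for 4 genes (Pfdn2, Gtf3c6, Top2b and Pi4kb), against 1.82% of all genes. The HT-Flx mice were below the HT-Veh mice with no overlap for 4 others (Svil, Llgl2, Dnah14 and Samd3), against 1.09%. As the rule used these contrasts, nothing is read from these counts. Of all genes tested, 754 (4.29%) had an unadjusted interaction p under 0.05 and 0 (0%) an adjusted one in limma. The comparisons of WT and HT share the filter and the fit but no mice.

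**Figure D2:**
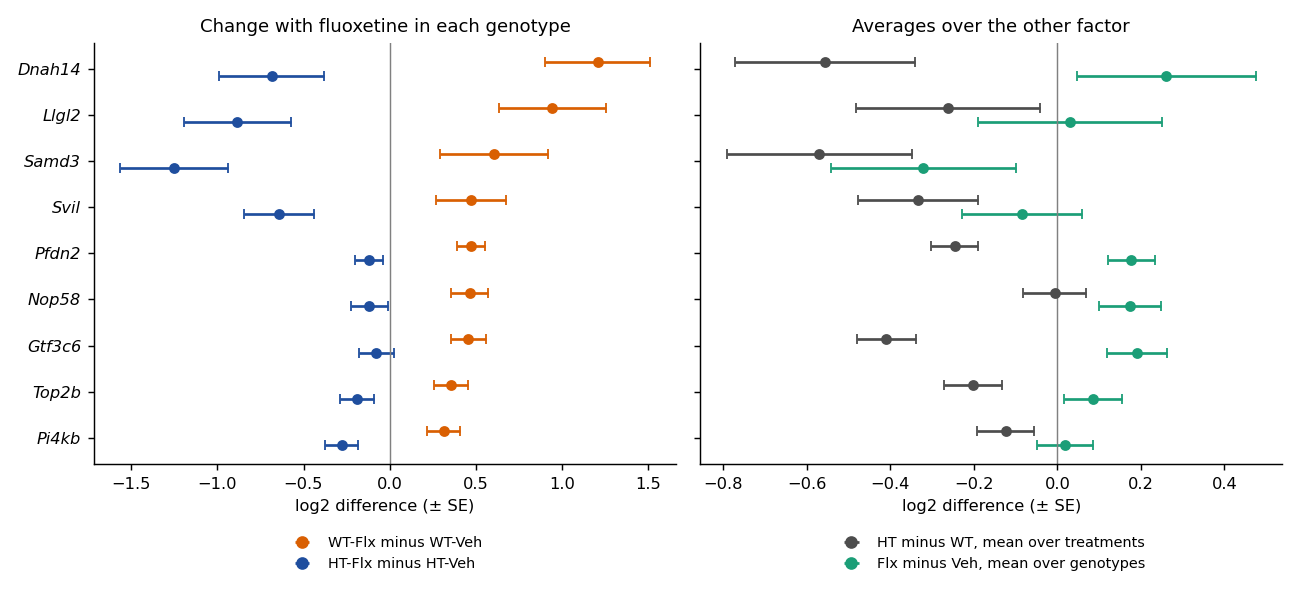
Left, drug change of each gene in WT (orange) and HT (blue); right, the mean HT minus WT difference over treatments (grey) and the mean Flx minus Veh difference over genotypes (green). Points are differences of log2(value + 1) and bars are the SE of the limma fit on 16 mice; on the left all WT changes lie above 0 and all HT changes below it.

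The list is not the top of the ranking without gaps. Up to the last listed gene, Gtf3c6, 16 genes had an interaction p as small, and 7 of them were not listed, among them the pseudogenes AC123659.1 and Gm38317, the antisense gene Gm10069, and Neto1, Parp3 and 2010111I01Rik. Of these 16 genes, 14 had a negative interaction, and the 2 with a positive one, 2010111I01Rik and Gm10069, were among those not listed, so that the shared direction is in part a product of the choice. Neto1, which encodes an auxiliary protein of glutamate receptors, had an interaction of -0.55 (SE 0.13) on the log2 scale. Just outside the last listed gene were Msh3 (-0.49), Cenpu (-1.52) and Fam205a3 (1.38), beside -0.53 for Gtf3c6.

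The averages over the other factor were not used to choose the genes. In a balanced design the mean genotype and mean drug differences are estimated independently of the interaction only if all groups have equal spread. The spread was compared only as the SD of the normalized read counts, not on the log2 scale of the fit. By that measure it differed between groups for some genes. The SD of Dnah14 was 49.5 in WT-Flx and from 7.66 to 11.8 in the other groups, whose means were lower. For Gtf3c6 it was 31.7 in WT-Flx and from 41.3 to 55.0 in the others. Both differences also share the residual spread with the interaction, and choosing small interaction p values favours genes with little spread. The counts of members for genotype and for drug below are therefore descriptions that are not free of the choice. All 9 genes were lower on average in HT, and 6 of 9 (Pfdn2, Gtf3c6, Top2b, Svil, Dnah14 and Samd3) had an unadjusted p under 0.05 in that direction, beside 5.36% of all genes. Gtf3c6 was the only one past the threshold over all genes: it was lower in HT, with a log2 difference of -0.41 (SE 0.071, adjusted p = 0.0401 in limma), as 10 genes in all (0.0569%) were past it. Over the alternatives the adjusted p of Gtf3c6 ran from 0.0106 to 0.356 and was past the threshold in 11 of 28. It missed the threshold in 12 of the 16 fits that left out 1 mouse, and with the bulb score as covariate (0.067). The direction of the difference was the same in each of these fits.

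As a description, the genotype difference of Gtf3c6 was larger between the fluoxetine groups than between the vehicle groups. The HT-Veh mean differed from the WT-Veh mean by -9.3%, with overlapping mice, and the HT-Flx mean from the WT-Flx mean by -37.3%, with no overlap. For the other 8 genes the vehicle difference pointed upward, from 3.56% higher in HT-Veh for Pfdn2 to 55.1% higher for Llgl2, and the WT and HT vehicle mice overlapped for every one of the 9. For Pfdn2 the mean genotype difference was -0.25 (SE 0.057, adjusted p = 0.154 in limma). For Nop58 it was -0.0067 (SE 0.075, adjusted p = 0.977 in limma), the smallest in size of the 9, and its sign turned in 7 of the 16 fits without 1 mouse.

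The mean drug difference was positive for 7 genes and negative for Svil and Samd3, though for Pi4kb, Llgl2, Dnah14 and Svil the sign turned in at least 1 alternative. None passed the threshold over all genes, as for all genes tested (0 of 17567, or 0%, with 568 at an unadjusted p under 0.05). An unadjusted p under 0.05 in the direction of higher values with fluoxetine was found for Pfdn2, Gtf3c6 and Nop58, 3 of 9 beside 1.46% of all genes. Their mean drug differences were 0.18 (SE 0.057), 0.19 (SE 0.071) and 0.17 (SE 0.075) on the log2 scale. For Pi4kb and Llgl2 the mean drug differences were 0.018 and 0.030.

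Whether the 9 genes also varied together from mouse to mouse was examined on the deviations of each mouse from its group mean. The rule used the size of these deviations, through the residual spread, but not whether those of 2 genes go together. Over the 36 pairs of genes the median Pearson r was 0.016, with 19 pairs positive and 0 over 0.5. The range was from -0.64 (Samd3 and Nop58) to 0.45 (Pfdn2 and Svil). All points share the 16 libraries and their normalization. Svil followed the olfactory bulb score (r = 0.74) and went against the score of cortical glutamatergic neurons (r = -0.74), and Samd3 did so at 0.61 and -0.69. Pfdn2 went with the interneuron score (0.66) and Llgl2 with that of the choroid plexus (0.60). Of all r between a gene and a marker score, those named so far were the largest in size, picked after being seen. Next in size were Samd3 with the choroid plexus (-0.57) and Dnah14 with interneurons (0.51). For Llgl2, WT-Veh 4 had both the highest choroid plexus sum, 364, and the highest WT-Veh value, 39.9. Sums of the 7 interneuron markers were between 17662 and 33901 in all mice. The highest, 33901 in WT-Veh 1 and 29313.5 in WT-Flx 4, were in the mice with the highest sums of bulb markers, 11074 and 8290.3. Those of the 5 choroid plexus markers were from 131 to 364 in WT-Veh, 115 to 176 in WT-Flx, 126 to 133 in HT-Veh and 114 to 167 in HT-Flx mice, and Folr1 was listed at 0 in at least 1 mouse of each group. The part of these cells in the values was not tested. For Gtf3c6, Nop58 and Llgl2 the r with the bulb score was -0.26, -0.29 and -0.074.

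**Figure D3:**
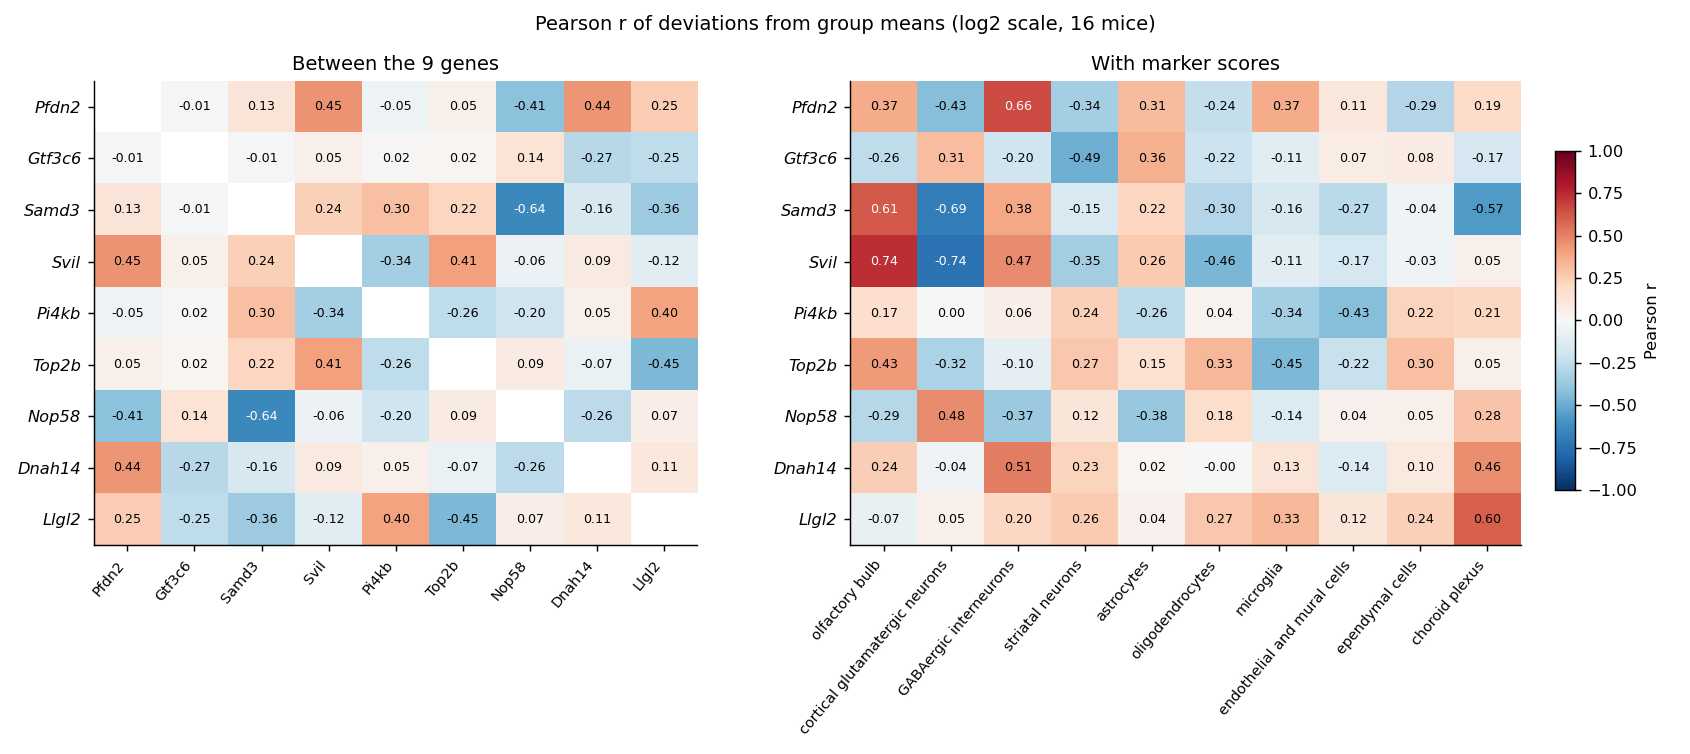
Pearson r (colour and number) between deviations of log2(value + 1) from the group means over 16 mice, among the 9 genes (left) and between each gene and 10 marker scores (right). Svil has the highest r with the olfactory bulb score, 0.74, while no pair of the 9 genes is above 0.45.

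By overall pattern over the 16 mice, Ik, which encodes a splicing factor, was among the 2 genes most like Pfdn2 (r = 0.91), and its own WT and HT drug changes were 0.27 and -0.068 on the log2 scale. For Top2b the gene most alike was Rad21 (0.89), a cohesin subunit gene, and for Svil Kyat1 (0.87). Gtf3c6 was most like Ube2r2 (0.86), Pi4kb like Cog7 (0.86), which encodes a Golgi tethering protein, and Samd3 like Zbtb8a (0.84). Dnah14 was most like Pfdn2 (0.83), Llgl2 like Rfesd (0.79) and Nop58 like Fig4 (0.78). For the other 8 genes the second most alike were 3830406C13Rik for Gtf3c6 (0.85), E530011L22Rik for Samd3 (0.82), Epha3 for Svil (0.85), Aatf for Pi4kb (0.85), Sfr1 for Top2b (0.85), Zc3h14 for Nop58 (0.76), Brf2 for Dnah14 (0.81) and Rrp1 for Llgl2 (0.78). Each was found among 12541 or 12542 genes with a mean of at least 100, and since r includes the group means, it partly restates the choice of the 9 genes.

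The partners and relatives of 8 of the 9 proteins, all but Samd3, were then examined in 10 lists by function with 90 genes, of which 88 were tested. None had an adjusted p under 0.05 for the interaction in limma, nor for the mean genotype or drug difference. An unadjusted p under 0.05 was found for 7 (7.95%, beside 4.29% of all genes), 3 of them negative and 4 positive. The median interaction of the 88 was 0.026 on the log2 scale, beside 0.0021 for all genes, and 39 were negative.

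The other prefoldin subunits and relatives had interactions on both sides of 0. Of 7, 0 had an unadjusted p under 0.05, 3 were negative, and their median WT change was -0.12. In the CCT chaperonin, which receives the clients of prefoldin, 5 of 8 were negative and Cct6a had an interaction of -0.26 (SE 0.12; the adjusted p of this and of the other 6 was 0.998 in limma). Among the TFIIIC and TFIIIB genes beside Gtf3c6, 3 of 9 were negative, and Brf2, a TFIIIB subunit for the promoters of U6 type, had -0.38 (SE 0.15). Of the 11 subunits particular to RNA polymerase III, 0 had an unadjusted p under 0.05. Among 7 core proteins of nucleolar particles, 5 were negative, with Gar1, of the H/ACA particle, at -0.33 (SE 0.16).

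The 4 partners with a positive interaction and an unadjusted p under 0.05 belonged to the lists of Top2b, Pi4kb, Llgl2 and Dnah14. Top2a, the topoisomerase II of dividing cells, had an interaction of 1.65 (SE 0.60) on the log2 scale, against -0.55 for Top2b. Pi4k2a, another phosphatidylinositol 4-kinase, had 0.29 (SE 0.11). Pard6g, of the PAR polarity complex, had 0.55 (SE 0.21), and all 9 polarity genes were positive. Dnah8, another axonemal dynein heavy chain, had 2.29 (SE 0.92), and 6 of its list of 14 were negative. The counts of Top2a and Dnah8 were low and scattered. Group means of Top2a ran from 19.8 in HT-Veh to 53.7 in WT-Veh, and those of Dnah8 from 12.9 in WT-Flx to 49.5 in WT-Veh. In HT-Flx the SD was 25.4 for Top2a and 36.8 for Dnah8, beside means of 39.9 and 28.9. In the gelsolin and villin family beside Svil, 5 of 7 genes were tested, and 3 were negative.

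**Figure D4:**
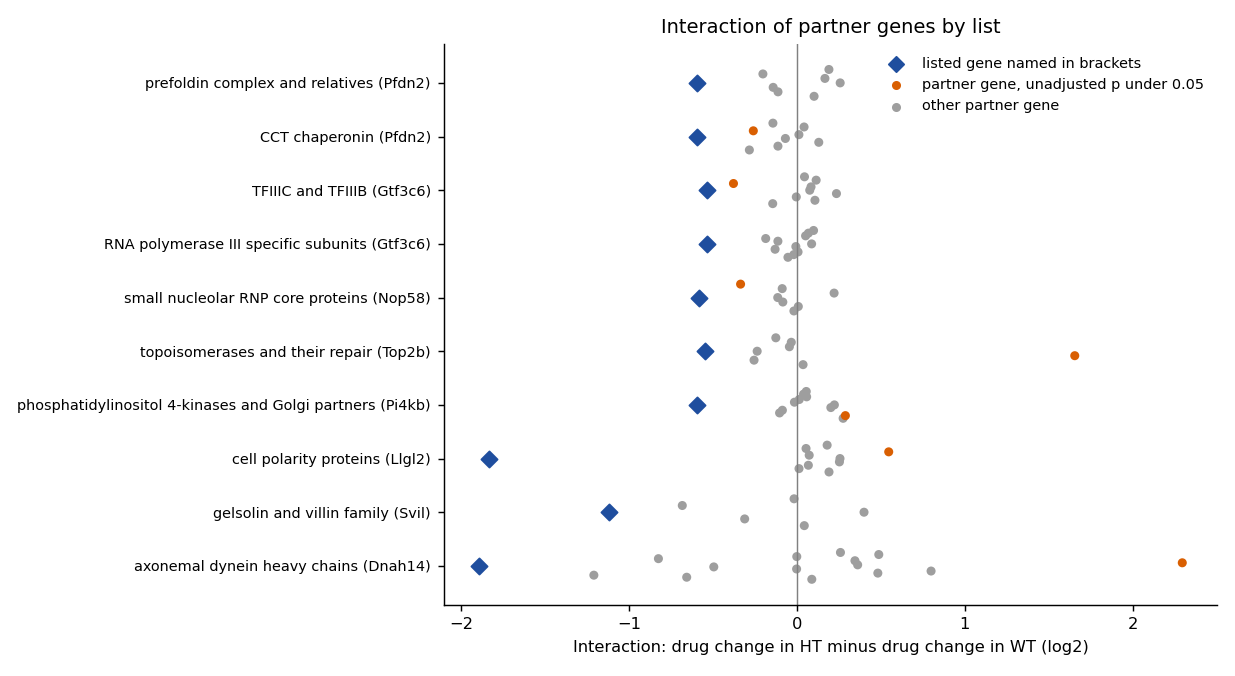
Interaction (x axis, HT drug change minus WT drug change, log2) of the 88 partner genes tested, by list, with the listed gene in brackets as a blue diamond; orange points are the 7 partners with an unadjusted p under 0.05. The diamonds lie at -0.53 or lower while the partners lie on both sides of 0.

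Some of the 9 genes have exon bases between the start and the end of a gene on the other strand. For Pfdn2, 809 exon bases lie within Klhdc9. For Pi4kb, 520, 339 and 254 lie within Gm15265, A730011C13Rik and Zfp687. For Dnah14, 440 lie within Lbr, and for Top2b, 4624 lie within Rarb. The introns of the other gene are included, so whether exons of both genes overlap was not examined. The libraries were stranded, but whether the strand was used in counting is not given in the sources used here. Gtf3c6, Samd3, Svil and Llgl2 overlap with no annotated gene.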

How the data were processed

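Medial prefrontal cortex RNA of 16 mice was sequenced as stranded poly-A libraries. The deposited signal is a normalized read count: the authors quantified reads with Salmon 1.1.0 on GRCm38, imported gene-level estimates through tximport and scaled them with DESeq2 1.30.1. Reads could not be recovered, so depth is unknown. Groups and replicate numbers came from the sample titles, and all columns were used. Log2(value + 1) was fitted in limma 3.58.1 (R 4.3.3; trend, 4 groups, 16 mice) over 17567 genes with at least 10 in at least 4 mice; two-sided p-values were adjusted by Benjamini-Hochberg with a threshold of 0.05. Fits were tested on simulated data. The members, gene lists, motifs and alternatives were chosen with earlier results of these data known. Named genes were the 9 members, all genes up to the last of them by interaction p and the next 3, partners with an unadjusted p under 0.05, the 2 genes most alike by r over the 16 mice, and Arid1b. Of these, 1 gene is not reported here. Genes that neighbour or overlap a member were added after the values were seen. Positions are from GENCODE (GRCm38), and promoters from RefSeq, where 7 of 9 genes matched. The alternatives were other pseudocounts, filters and scalings, quality weights, a bulb covariate, a replicate block, leaving out each mouse, and leaving out bulb-rich mice. A set of 4 mice named in advance as bulb-rich (WT-Veh 1, WT-Flx 1, WT-Flx 4 and HT-Veh 4) proved not to be the 4 highest by the marker score, since WT-Flx 2 was above WT-Flx 1; leaving out the 4 and the 5 highest was therefore added after seeing the data.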

Additional observations from a re-analysis of the deposited data

How the results depend on the processing

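The 9 interactions, the WT changes and the HT changes kept their sign in all 765 values over the alternatives; 8 values moved by more than the residual SD. These were Svil's interaction with the bulb covariate (-0.79), Dnah14's interaction and WT change without the 4 mice named in advance (-1.26 and 0.56) and without the 5 highest bulb scores (-0.86 and 0.16), and, without the 4 highest scores, Pi4kb's interaction (-0.73) and WT change (0.46) and Top2b's interaction (-0.39). A mean of at least 100 removes Samd3, Dnah14 and Llgl2. No genes passed for the interaction or the mean drug difference in limma (at an unadjusted p under 0.05, between 534 and 1952 and between 391 and 1314 genes), except without the 5 highest bulb scores, where 2 passed for the interaction and 2 for the drug, no member among them; that fit has 1 WT-Flx mouse, assumed to vary like the others. The count of 10 genes for genotype was 31 with quality weights, 2 with the bulb covariate, 3 without the 4 highest bulb scores and 17 with the replicate block, and 1 to 16 when 1 mouse was left out (1 without WT-Flx 2 or WT-Flx 3, 16 without WT-Flx 1). Mice of the same replicate number had a mean r of 0.056 (from -0.23 to 0.31, over 24 pairs) between their deviations from group means. For different numbers it was -0.017 (from -0.46 to 0.36, over 72 pairs). Whether the numbers mark a shared litter or batch was not tested. The replicate block changed no other call. Of the other mean differences, small ones changed sign without passing the threshold. The drug difference was 0.015 for Svil and -0.041 for Llgl2 with quality weights, -0.072 for Dnah14 and -0.12 for Llgl2 without the 4 mice named in advance, and -0.27 for Dnah14 without the 5 highest bulb scores. When 1 mouse was left out, the drug difference ran from -0.18 to 0.012 for Svil, from -0.015 to 0.043 for Pi4kb and from -0.11 to 0.15 for Llgl2, and the genotype difference from -0.042 to 0.039 for Nop58. The largest shift of the median of all genes was 0.020. Dixon's test set apart a mouse in 0 of 36 groups of 4 values. The depth is unknown, so what it limits cannot be given.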
